A study of Homo sapiens with 6 samples.

Results

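Interferon-stimulated genes were read from the counts of a melanoma cell line transfected with a SOX10 plasmid or with the empty plasmid. The members were 37 genes listed by symbol for their known induction by interferon, and all 37 were found among the 23368 genes of the table. The cells were 1205Lu, an established line of metastatic human melanoma. One group of flasks received pCMV6-SOX10, which carries the neural crest transcription factor SOX10 behind a viral promoter. The other group received pCMV6, the same plasmid without SOX10. Each flask of both groups was given 7.8 µg of plasmid DNA with the transfection reagent FuGENE 6 and was lysed 24 h later, with 3 biological replicates per group. Both groups were thus transfected, and no untransfected library was analysed here. The transfection was transient, with the share of cells that took up plasmid not given in the sources used here.

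Interferons are secreted proteins that cells release when they sense foreign nucleic acid. Type I interferons bind the receptor IFNAR1 and IFNAR2, type III interferons bind a receptor with IL10RB as a subunit, and both act through the kinases JAK1 and TYK2. The kinases activate STAT2, which acts with IRF9 in a complex that binds the interferon-stimulated response element in promoters. The induced genes encode proteins that bind foreign RNA, degrade it, block viral entry or exit, or feed back on the pathway.

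The libraries held between 867917 and 4167393 reads assigned to genes, and every SOX10 library was deeper than every control. Levels are given as CPM, read counts scaled to a common library size with TMM, a correction for differences in library composition. In the deepest library 1 read stood for 0.242 CPM, and in the shallowest for 1.15 CPM. SOX10 replicate 1 and control replicate 3 stood apart in reads outside annotated genes, with 93.5 and 97.0 per 100 assigned reads against 121 to 135 in the other 4 libraries. Triplets of values below are in the order of replicates 1, 2 and 3. The labels were checked on SOX10, at 21.7, 18.7 and 34.6 CPM in the libraries labelled SOX10 and 16.6, 20.8 and 21.5 CPM in the controls. Its log2 fold change was 0.35 (SE 0.27), with an adjusted p of 0.927 by the quasi-likelihood test of edgeR and overlapping groups, so SOX10 reads did not separate the labels. PMP2, the gene in the title of the series, stood at 17.7, 21.1 and 24.9 against 0, 1.15 and 1.95 CPM, with an adjusted p of 0.000103 by edgeR, higher in 3 of 3 libraries labelled SOX10. It is the series' own headline gene and passed the filter on read counts only through those libraries. PMP2 is therefore not an independent check of the labels.

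Most members with a promoter entry share the core of the interferon-stimulated response element. The members were listed for their induction by interferon, so a high share of this element is not an independent result. RefSeq promoters on GRCh38.p14 were at hand for 29 members, from 250 bases before to 50 bases after the start of each gene. IFIT2, USP18, OAS2, OASL, MX2, IFITM2, IRF7 and TRIM22 had no entry. The core of the response element was searched on both strands as GAAANNGAAA, in which N is any base and matches may overlap. It was found in 19 of 29 member promoters (65.5%), against 996 of 27305 RefSeq promoters of the same length (3.65%). Another motif searched, the gamma-activated site TTCNNNGAA, was found in 8 of 29 member promoters (27.6%), against 7.88% of the RefSeq promoters. A match is a description of these letters and not a measured binding site.

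Windows from 6 promoters are shown because they hold the matches of the 3 members with the highest level per exon length (ISG15, IFITM3 and IFIT1), of IFI27 and BST2, whose levels spread widely between libraries, and of DDX60, whose groups did not overlap. Each window holds the matches with 15 bases on either side, on the strand of the gene from 5′ to 3′, and capitals mark the matches. They lie on GRCh38.p14 at chr1:1013369-1013414 (+ strand) for ISG15, chr11:320871-320927 (- strand) for IFITM3, chr10:89392492-89392544 (+ strand) for IFIT1, chr14:94110613-94110665 (+ strand) for IFI27, chr19:17405730-17405775 (- strand) for BST2 and chr4:168318781-168318855 (- strand) for DDX60.
ISG15: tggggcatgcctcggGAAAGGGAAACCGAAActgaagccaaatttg
IFITM3: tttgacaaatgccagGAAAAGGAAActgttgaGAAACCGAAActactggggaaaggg
IFIT1: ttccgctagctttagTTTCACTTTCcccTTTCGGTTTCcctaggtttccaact
IFI27: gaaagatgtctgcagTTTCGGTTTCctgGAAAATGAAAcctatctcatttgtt
BST2: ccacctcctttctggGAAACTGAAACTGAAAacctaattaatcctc
DDX60: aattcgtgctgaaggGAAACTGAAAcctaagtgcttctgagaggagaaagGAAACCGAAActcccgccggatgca
Each of these 6 windows holds 2 matches. In ISG15 and BST2 the matches overlap on the strand of the gene, in IFIT1 both lie on the other strand, and in IFI27 there is 1 on each strand.

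**Figure D1:**
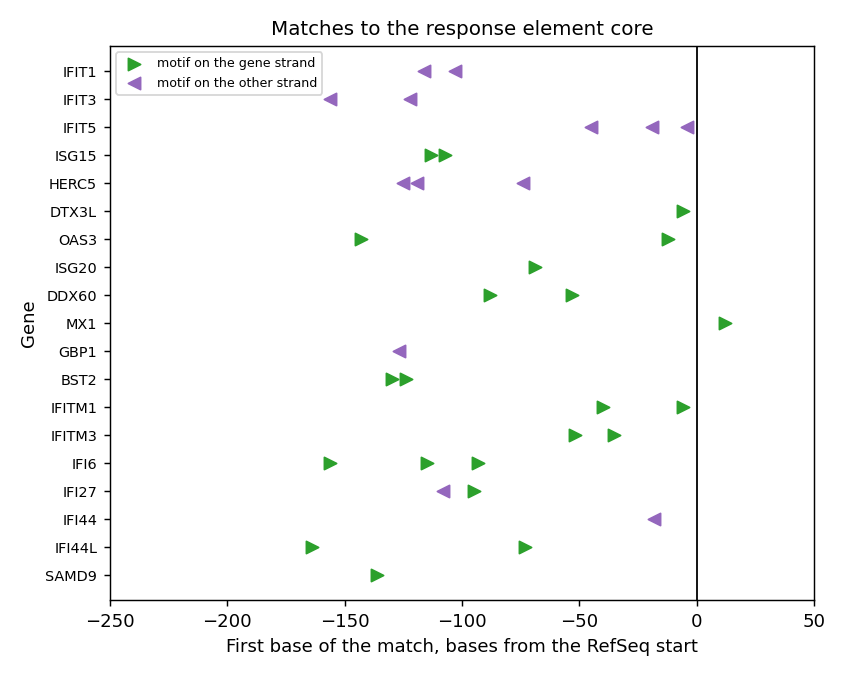
Position of the first base of each match to the response element core in the 19 member promoters that hold one, in bases from the RefSeq start (x axis), with 1 row per gene (y axis) and the marker pointing along the strand of the match. All matches but that of MX1 begin upstream of the start.

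The 19 members with a match had a median level of 160.1 CPM per kb of exons and a median log2 fold change of -0.048. In the 10 members with a promoter entry and no match these were 41.8 CPM per kb and 0.080. The within-group SD of log2 CPM had a median of 0.24 with a match and 0.22 without. The 10 without a match were HERC6, OAS1, RSAD2, CMPK2, STAT2, IRF1, IRF9, IFI35, XAF1 and SAMD9L. Among them XAF1 had the largest within-group SD of all members, 1.04, and RSAD2 had 0.73, so wide spread was not limited to members with a match.

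Interferon-stimulated genes were abundant in both groups, and none passed the test between them, as was the case for nearly all tested genes. All 37 had enough reads for edgeR's quasi-likelihood test, fitted on all 10678 tested genes. At an adjusted p under 0.05, 0 members were higher and 0 were lower in the SOX10 libraries, where 0.00937% of all tested genes were called higher and 0.103% lower. With shares this small, 0 of 37 says little about these genes. At an unadjusted p under 0.05, 0 members were higher and 2 were lower (IFIT2 and IFI27), where 2.71% of all tested genes were higher and 3.52% lower. DESeq2 and limma-voom also called 0 members at an adjusted p under 0.05, where they called 0.0937% and 0.0656% of all tested genes lower. They had 1 and 2 members lower at an unadjusted p under 0.05, where 2.23% and 3.72% of all tested genes were. The log2 fold change was positive for 18 members and negative for 19, with a median of -0.026 against 0.0076 over all tested genes. The values came from bulk cultures, in which fewer cells of a type and less RNA per cell cannot be told apart. Single values ran from -0.65 for IFI27 to 0.17 for OAS2. In 1 member, DDX60, the 3 SOX10 libraries lay below the 3 controls, and in 0 members above, where 6.03% of all tested genes lay apart downward and 5.72% upward.

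The confidence intervals of edgeR gave a range for each difference, using a spread drawn in part from other genes. They may be too narrow for members whose own libraries spread widely. RSAD2, for instance, had a within-group SD of 0.73 on the log2 scale, against an SE of 0.26 for its difference. For 27 members the 95% confidence interval of the fold lay between 1.5-fold lower and 1.5-fold higher. For 34 it lay within 2-fold in either direction, and the exceptions were BST2, IFI27 and XAF1. These 3 had within-group SDs of 0.93, 0.77 and 1.04 on the log2 scale.

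**Figure D2:**
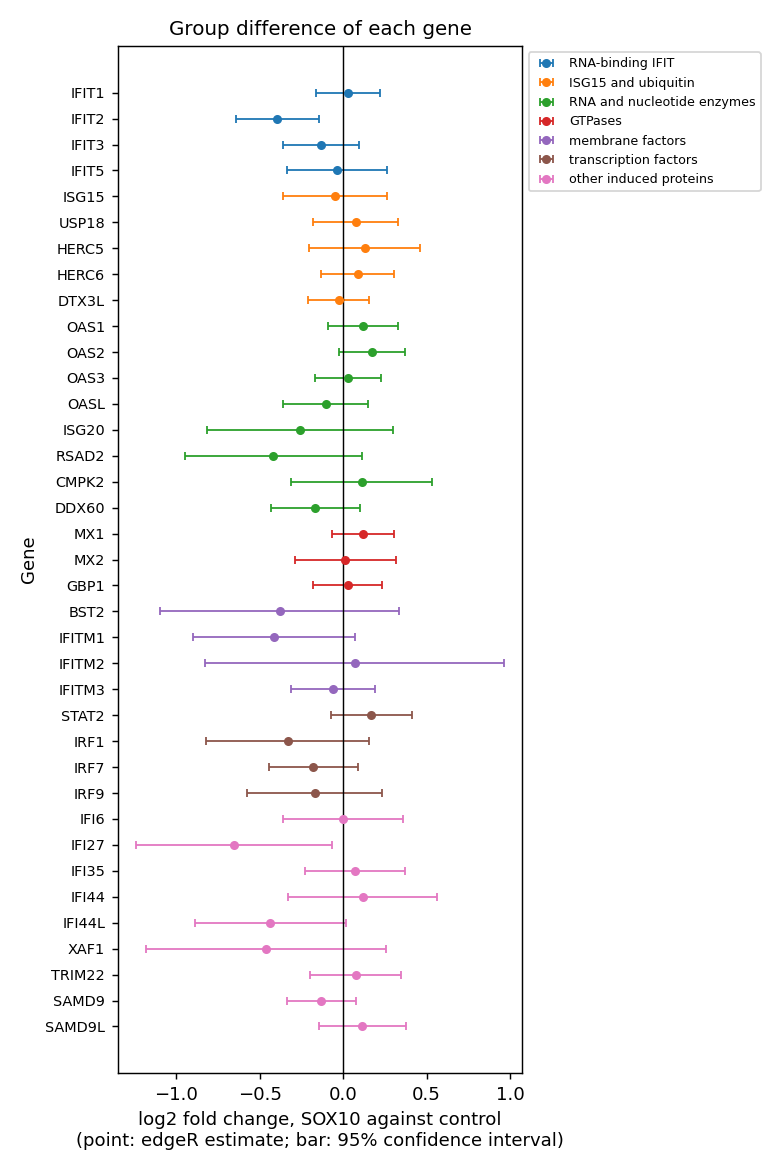
Log2 fold change of each of the 37 genes, SOX10 against control (x axis), with edgeR's estimate as a point and its 95% confidence interval as a bar, coloured by role. The 95% intervals of IFIT2 and IFI27 end below 0 and the other 35 include 0.

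Members together took 1.64%, 1.53% and 1.39% of all assigned reads with SOX10 and 1.62%, 1.34% and 1.72% in the controls. The group means were 1.52% ± 0.13 and 1.56% ± 0.20 (SD, n = 3 each), so the groups overlapped. The counting error of each share was small, with a 95% Wilson interval from 1.32% to 1.36% in control replicate 2, the shallowest library, and from 1.70% to 1.74% in control replicate 3. These intervals cover counting error only.

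Levels were compared between genes per kb of exons, using the exon union of each gene in GENCODE release 29. ISG15 had the highest level, at 667 ± 177 CPM per kb in the SOX10 group and 684 ± 151 in the controls (SD, n = 3 each). IFITM3 followed at 623 ± 128 and 647 ± 75.2, and IFIT1 at 542 ± 5.98 and 531 ± 72.9. These 3 do not differ from each other beyond their spread. At the low end stood IRF1 at 8.42 ± 1.09 and 9.89 ± 4.24 CPM per kb and IFITM2 at 6.73 ± 1.89 and 5.98 ± 2.11. The median member lay at 80.5 CPM per kb, against 7.996 for the 9764 tested genes with a length. By this measure 20 members stood above 90% of those genes and 36 above 50%.

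**Figure D3:**
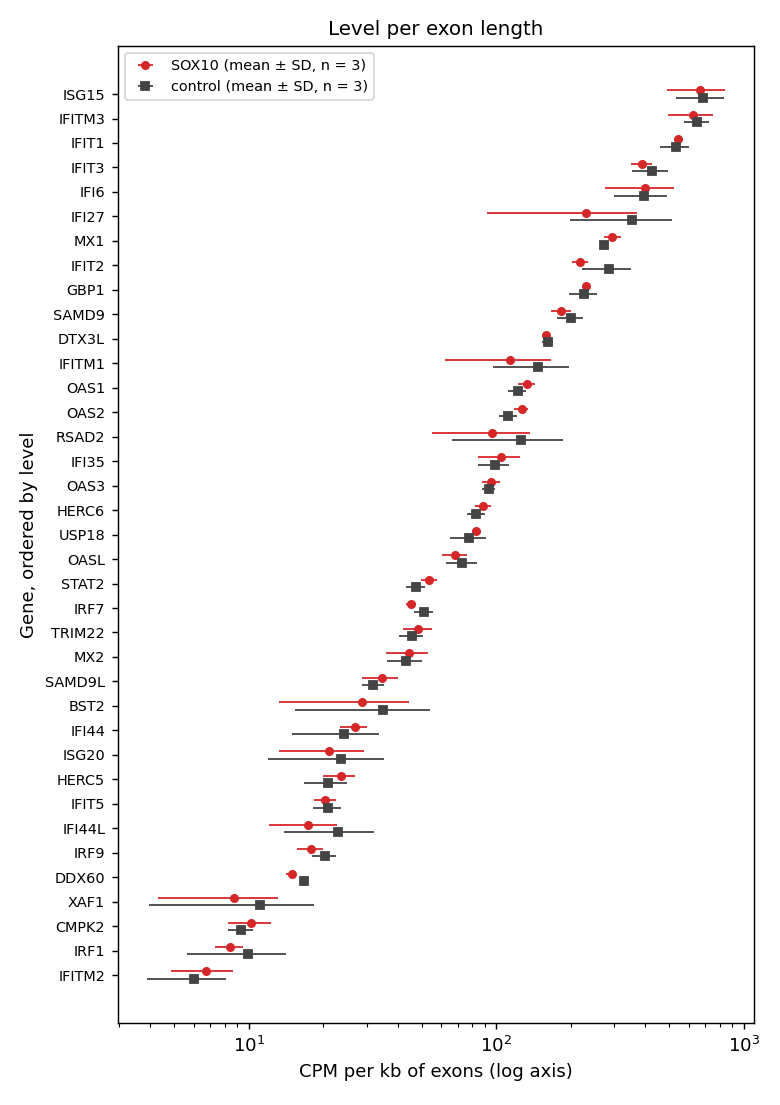
Level of each gene in CPM per kb of exons (x axis, log scale) as mean ± SD of 3 libraries in the SOX10 group (circles) and the control group (squares), with genes ordered by their mean over all libraries (y axis). Group means lie close together for most genes over a range from 6.35 for IFITM2 to 675.6 for ISG15. Those of IFI27 lie further apart, at 231 CPM per kb with SOX10 and 355 in the controls.

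The IFIT genes encode proteins that bind foreign RNA ends and block its translation. IFIT1 was the member with the most reads, at 2534, 2483 and 2489 CPM in the SOX10 libraries and 2526, 2083 and 2743 CPM in the controls. Its log2 fold change was 0.028 (95% confidence interval -0.16 to 0.22), and the SOX10 values lay inside the control range. IFIT2 stood at 894, 963 and 830.3 CPM with SOX10 and at 1372, 879 and 1272 CPM in the controls. Control replicates 1 and 3 were above all other libraries and control replicate 2 lay among the SOX10 libraries. IFIT2 had the smallest p of all members, with a log2 fold change of -0.39 (SE 0.12), an unadjusted p of 0.00331 and an adjusted p of 0.392 by edgeR. Without control replicate 2 its log2 fold change was -0.56 and the adjusted p 0.0102, in a fit that called 0.143% of all tested genes lower. The adjusted p was 0.0493 with no filter on low counts, where 0.170% of all tested genes were called lower, and 0.0477 with reads outside genes as a covariate. Over all 17 alternatives the adjusted p ran from 0.0102 to 0.963, and the log2 fold change from -0.56 to -0.27. IFIT3, a partner of IFIT1 and IFIT2, read 1086, 1082 and 915 against 1235, 910.0 and 1227 CPM. IFIT5 was much rarer, at 72.6, 83.8 and 89.1 against 71.9, 93.4 and 85.8 CPM. The groups overlapped in both, with a log2 fold change of -0.13 (SE 0.11) for IFIT3 and -0.036 (SE 0.15) for IFIT5.

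ISG15 is a ubiquitin-like protein that is joined to other proteins, HERC5 is the ligase that joins it, and USP18 removes it and dampens receptor signalling. ISG15 stood at 809, 593 and 481 CPM with SOX10 and 618, 517 and 797 CPM in the controls. SOX10 replicate 1 and control replicate 3 were the high libraries, and the other 4 lay at 618 CPM or below. For USP18 the values were 182, 174 and 175 and 175, 135 and 188 CPM, with control replicate 2 the lowest library. In GENCODE release 29, 23.4% of the 50-base stretches of USP18 also occur in other genes, mostly USP41, so its reads are uncertain to that extent. HERC5 had 94.3, 88.5 and 70.5 against 73.0, 61.1 and 90.7 CPM. Its relative HERC6 had 326, 375 and 338 against 345, 293 and 336 CPM, with control replicate 2 the lowest library for both. DTX3L, a ubiquitin ligase that pairs with PARP9, was the steadiest member, at 949, 935 and 912 against 938, 908 and 997 CPM. Its within-group SD of log2 CPM was 0.052. Log2 fold changes of the 5 genes ran from -0.048 for ISG15 to 0.13 for HERC5, and the groups overlapped in all 5.

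The OAS enzymes make a short signal nucleotide when they meet double-stranded RNA, which switches on RNA decay. OAS1 stood at 593, 537 and 510.1 against 514, 454 and 539 CPM and OAS2 at 829.6, 808 and 733 against 673, 659 and 766 CPM. OAS2 had the highest log2 fold change of all members, 0.17 (SE 0.10), with an unadjusted p of 0.0849 and an adjusted p of 0.871 by edgeR. Its control replicate 3 lay above SOX10 replicate 3, so the groups overlapped. OAS3 read 773, 797 and 681 against 776, 685 and 740.2 CPM, and OASL, a relative without the enzyme activity, 251, 221 and 199 against 255, 199.54 and 261 CPM. Log2 fold changes were 0.12 (SE 0.10) for OAS1, 0.031 (SE 0.10) for OAS3 and -0.10 (SE 0.12) for OASL, and the groups overlapped in each.

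Among other enzymes of RNA and nucleotides, RSAD2 and ISG20 spread widely and DDX60 did not. RSAD2, or viperin, makes a chain-terminating nucleotide, and stood at 477, 353 and 188 CPM with SOX10 and 463, 225 and 645 CPM in the controls. Its highest library exceeded its lowest 2.53-fold within the SOX10 group and 2.87-fold within the controls. The log2 fold change of RSAD2 was -0.42 (95% confidence interval -0.95 to 0.11), with overlapping groups. ISG20, an RNA exonuclease, had 62.4, 45.9 and 28.3 against 45.3, 28.8 and 77.5 CPM, and in both genes SOX10 replicate 1 and control replicate 3 led their groups. CMPK2, a mitochondrial nucleotide kinase that neighbours RSAD2, had 48.5, 39.1 and 32.7 against 32.1, 36.9 and 40.5 CPM. Log2 fold changes were -0.26 (SE 0.27) for ISG20 and 0.11 (SE 0.20) for CMPK2. DDX60, a helicase that aids RNA sensing, had 93.7, 91.7 and 85.7 against 105, 100.3 and 99.5 CPM. The 3 controls of DDX60 lay above the 3 SOX10 libraries by a narrow margin. Its log2 fold change was -0.17 (SE 0.13), with an unadjusted p of 0.212 and an adjusted p of 0.927 by edgeR.

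MX1 and MX2 are dynamin-like GTPases that trap viral particles, and GBP1 is a guanylate-binding GTPase that responds strongly to interferon gamma. MX1 stood at 1289.7, 1183 and 1102 CPM with SOX10 and 1114, 1090.0 and 1092 CPM in the controls. The control libraries of MX1 agreed within 1.02-fold, and SOX10 replicate 3 lay among them. MX2 had 164, 128 and 113 against 125, 114 and 155 CPM and GBP1 687, 696 and 722 against 772, 596 and 696 CPM. The log2 fold change was 0.12 (SE 0.090) for MX1, 0.014 (SE 0.15) for MX2 and 0.028 (SE 0.10) for GBP1, and the groups overlapped in all 3. Of the 50-base stretches of GBP1, 13.3% also occur in other genes, mostly the pseudogene GBP1P1.

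The membrane factors showed the widest spread of all roles, with a median within-group SD of 0.50 on the log2 scale. BST2, or tetherin, holds budding virus at the cell surface. It stood at 45.5, 28.7 and 13.8 CPM with SOX10 and 39.8, 13.8 and 52.7 CPM in the controls. It ran from 13.8 CPM in SOX10 replicate 3 and control replicate 2 to 52.7 CPM in control replicate 3. These values rested on 57, 12 and 108 reads. IFITM1, which blocks viral fusion at the cell surface, had 177, 109 and 70.0 against 150.4, 103 and 206 CPM, and IFITM3, which does so in endosomes, 917, 741 and 607 against 805, 685 and 864 CPM. Their relative IFITM2 was rare, with 35, 16 and 23 against 4, 5 and 18 reads, or 9.37, 6.38 and 5.57 against 4.42, 5.77 and 8.78 CPM. In all 4 genes SOX10 replicate 1 was the highest SOX10 library and control replicate 3 the highest control. The log2 fold changes were -0.38 (95% confidence interval -1.10 to 0.34) for BST2, -0.41 (-0.90 to 0.071) for IFITM1, 0.068 (-0.83 to 0.96) for IFITM2 and -0.059 (-0.31 to 0.19) for IFITM3. The IFITM genes are near-identical copies in part. Of the 50-base stretches of IFITM1, 42.3% also occur in other genes on either strand, of IFITM2 15.8% and of IFITM3 20.3%. Of the exonic bases of IFITM3, 23.7% are shared with other genes, with the largest overlap on the opposite strand. The table holds a separate row for reads in more than 1 place, and how many of those came from these 3 genes is not known, so their levels are uncertain.

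Among the transcription factors, STAT2 and IRF9 are subunits of the complex that binds the response element, IRF7 amplifies interferon production, and IRF1 responds to interferon gamma. STAT2 had 188, 191 and 166 CPM with SOX10 and 144, 168 and 170.2 CPM in the controls. IRF9 had 38.8, 30.7 and 35.4 against 36.5, 44.98 and 38.0 CPM, IRF7 99.6, 91.7 and 99.6 against 98.4, 113 and 116 CPM, and IRF1 35.9, 32.3 and 27.6 against 27.6, 28.8 and 56.1 CPM. The groups overlapped in each of the 4 genes, and in IRF1 control replicate 3 stood above all other libraries. Log2 fold changes were 0.17 (SE 0.12) for STAT2, -0.17 (SE 0.20) for IRF9, -0.18 (SE 0.13) for IRF7 and -0.33 (SE 0.24) for IRF1. In GENCODE release 29, 93.5% of the exonic bases of IRF9 are shared with a transcript on the same strand, and 15.3% of those of IRF1 with a gene on the opposite strand. Reads from the shared bases of IRF9 cannot be told apart by strand, and those of IRF1 only if the counting used strand, which the sources do not say.

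SAMD9 and SAMD9L are neighbouring genes whose proteins restrict poxviruses. SAMD9 stood at 1124, 1355 and 1293 against 1545, 1208 and 1375 CPM and SAMD9L at 200.04, 261 and 275 against 253, 219 and 210.2 CPM. They were the only members with their lowest library in SOX10 replicate 1. TRIM22, a ubiquitin ligase with antiviral activity, had 155, 156 and 122 against 148, 119 and 142 CPM, and IFI35 had 159.9, 117 and 115 against 134, 103 and 133 CPM. IFI44 had 46.3, 50.3 and 39.0 against 55.3, 24.2 and 43.4 CPM. Log2 fold changes of these 5 ran from -0.13 for SAMD9 to 0.12 for IFI44, and all 5 had overlapping groups.

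IFI27, a mitochondrial protein, had the lowest log2 fold change of all members. It stood at 320.3, 155 and 98.6 CPM with SOX10 and 289, 167 and 426 CPM in the controls. SOX10 replicate 1 lay above control replicates 1 and 2, so the groups overlapped. The log2 fold change was -0.65 (SE 0.28), with an unadjusted p of 0.0300 and an adjusted p of 0.750 by edgeR. Without SOX10 replicate 1 it was -1.27 with an adjusted p of 0.0101, in a fit that called 0.130% of all tested genes lower. Without control replicate 3 it was -0.25, with an adjusted p of 0.956. The adjusted p over the 17 alternatives ran from 0.000111, with no filter on low counts, to 1.00 with DESeq2. IFI6, which protects mitochondria from cell death signals, had 458, 329 and 248 against 366, 249 and 409.6 CPM. IFI44L had 122, 118 and 66.1 against 170.3, 73.8 and 160.4 CPM and XAF1, which binds an inhibitor of cell death, 48.7, 28.7 and 17.2 against 47.5, 11.5 and 61.9 CPM. SOX10 replicate 1 was the highest SOX10 library in all 3 genes. XAF1 had the largest within-group SD of all members, 1.04 on the log2 scale, with only 10 reads in control replicate 2 against 127 in control replicate 3. Of its exonic bases 69.9% are shared with a gene on the opposite strand. Log2 fold changes were 8.1e-05 (SE 0.17) for IFI6, -0.44 (SE 0.22) for IFI44L and -0.46 (SE 0.35) for XAF1. Without control replicate 3, that of XAF1 was 0.084, and without SOX10 replicate 1 it was -0.96.

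**Figure D4:**
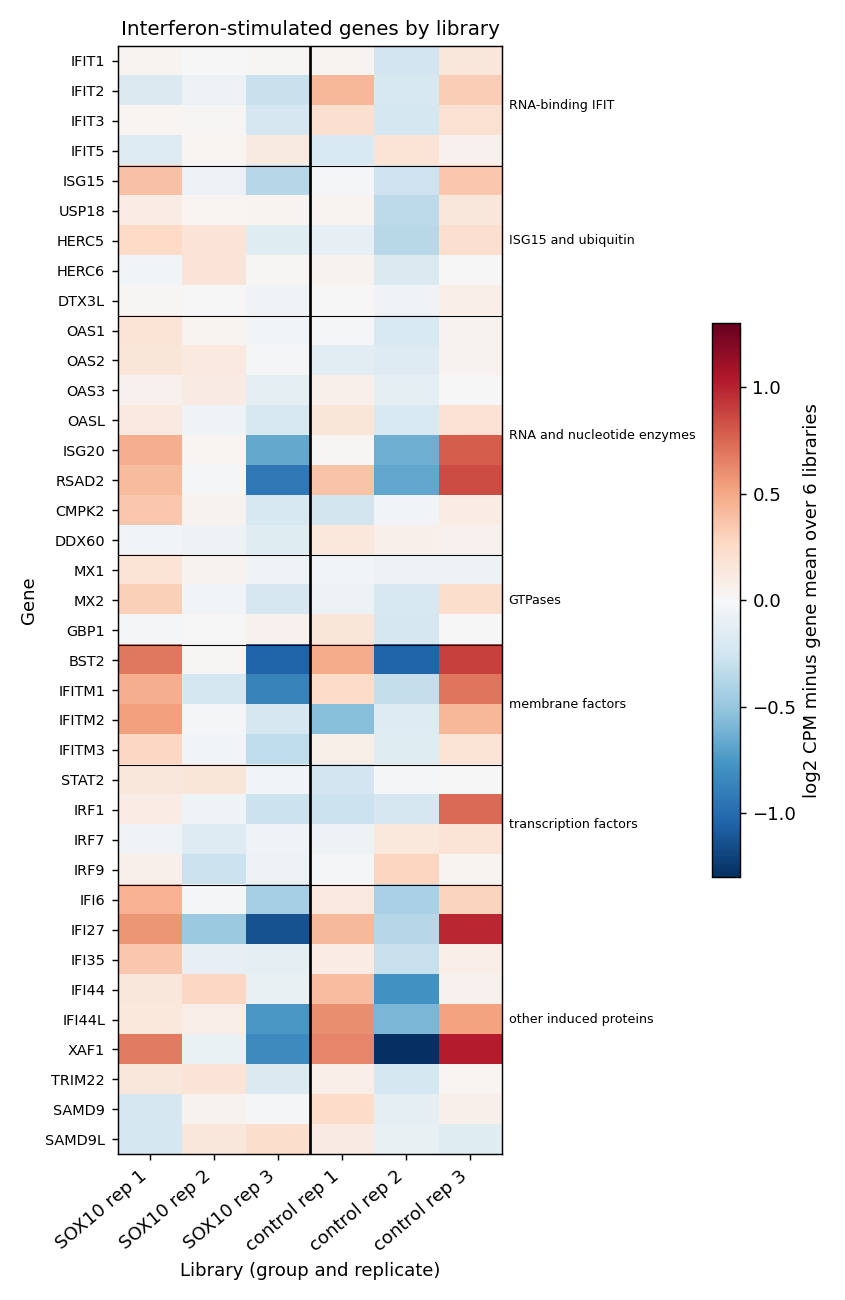
Log2 CPM of each gene minus its mean over the 6 libraries (colour, red above and blue below the mean), with libraries in columns, genes in rows and lines between roles. SOX10 replicate 1 and control replicate 3 hold most of the red cells, and SOX10 replicate 3 and control replicate 2 most of the blue ones.

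The members moved together between libraries of the same group. SOX10 replicate 1 was the highest SOX10 library for 27 of 37 members (73.0%), against 34.5% of all tested genes. Control replicate 3 was the highest control for 22 (59.5%), against 32.0%. SOX10 replicate 3 was the lowest SOX10 library for 28 members and control replicate 2 the lowest control for 28 (75.7% each), against 33.8% and 35.2% of all tested genes. On the log2 scale, SOX10 replicate 1 exceeded the mean of the other SOX10 libraries by a median of 0.18 over members and 0.0040 over all tested genes. Control replicate 3 exceeded the mean of the other controls by a median of 0.21 over members and -0.0015 over all. Both libraries were above their group mates in 29 members (78.4%), against 29.1% of all tested genes. The libraries compared here and below were not named by a rule set beforehand. These shares and shifts therefore describe a pattern and do not test it.

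The size of this shift differed between members. In 7 members (18.9%) both libraries exceeded their group mates by more than 0.5 on the log2 scale, against 2.30% of all tested genes. It was largest in IFI27 (1.37 in SOX10 replicate 1 and 0.95 in control replicate 3), BST2 (1.19 and 1.13) and XAF1 (1.13 and 1.37). SAMD9L was the only member below its group mates in both, at -0.42 and -0.17. Across the 37 members the shifts in the 2 groups had a Pearson correlation of 0.84, and across 9764 tested genes with a length 0.14. The median level was 80.5 CPM per kb in members and 7.996 in those genes, and counting error in rarer genes can weaken such correlations. The part of level in this gap was not tested. Genes are not independent replicates, and each shift rests on the same 6 libraries.

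The same pair of libraries had the fewest reads outside genes, as given above, and by the median the shortest members shifted most. In the 8 members with under 1.5 kb of exons the median shift was 0.66 in SOX10 replicate 1 and 0.59 in control replicate 3. In the 12 members with at least 4 kb it was 0.054 and 0.086. Among all tested genes the shift of SOX10 replicate 1 had a median of 0.11 in the 706 genes under 1.5 kb, 0.051 at 1.5 to 4 kb and -0.041 above. That of control replicate 3 had medians of 0.037, 0.038 and -0.034, so it was not larger in the shortest genes than in the middle class. Across members, the correlation of the shift with log2 exon length was -0.64 in SOX10 replicate 1 and -0.42 in control replicate 3. Over the 9764 tested genes these were -0.15 and -0.096, where counting error in rarer genes can weaken them. With the GC content of the longest transcript of each gene the correlation across members was 0.38 and 0.18, and over the 9764 genes 0.22 and 0.085. The part of exon length, GC content and reads outside genes in these shifts was not tested.

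**Figure D5:**
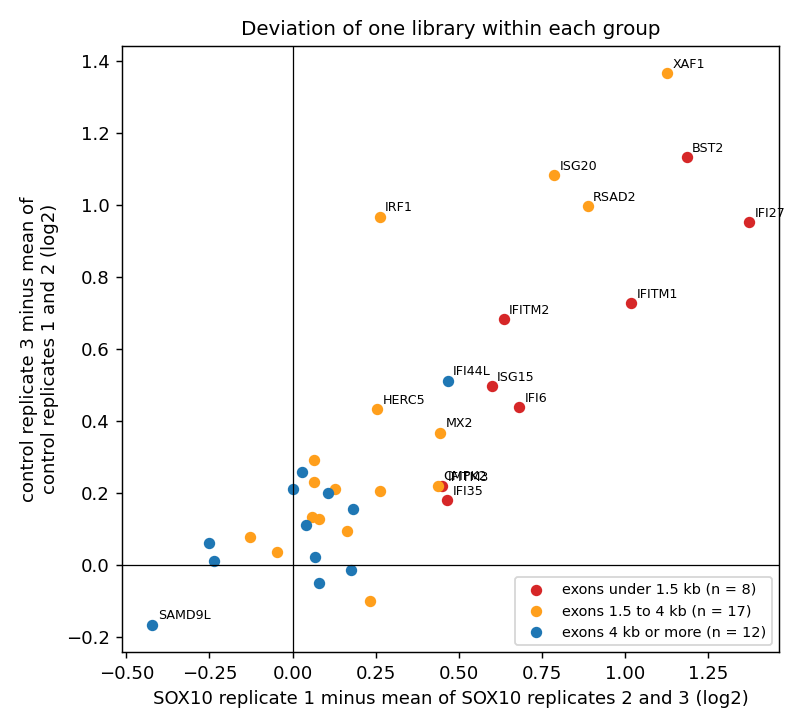
Shift of SOX10 replicate 1 from the mean of SOX10 replicates 2 and 3 (x axis, log2 CPM) and of control replicate 3 from the mean of control replicates 1 and 2 (y axis, log2 CPM) for each of the 37 genes, coloured by exon length. The points with the largest shifts lie at the upper right, among them IFI27, BST2 and XAF1, and SAMD9L lies at the lower left.

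The pattern did not come with a wide spread in every member. The within-group SD of log2 CPM had a median of 0.20 and ran from 0.052 to 1.04, against a median of 0.26 over all tested genes, of which many have fewer reads. Leaving out SOX10 replicate 1 gave a median log2 fold change of -0.16 over members, and leaving out control replicate 3 gave 0.11. Without both of these libraries it was -0.019 over the 36 members that could be tested, and 0 members were called by edgeR, where 0.0592% of all tested genes were called lower. At an unadjusted p under 0.05, 3 of the 36 were lower, where 3.22% of all tested genes were. With reads outside genes per 100 assigned reads as a covariate, 3 members were called lower, where 0.384% of all tested genes were called lower. They were IFIT2, IFITM1 and IFI27, with log2 fold changes of -0.42, -0.57 and -0.91.

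Interferons themselves were rare. Of 21 ligand genes in the table only IFNB1 and IL29 had enough reads for the test. IFNB1, the type I interferon of most non-immune cells, had 12, 17 and 23 reads with SOX10 and 11, 4 and 29 in the controls, or 3.21, 6.78 and 5.57 against 12.2, 4.61 and 14.1 CPM. Its log2 fold change was -1.10 (SE 0.44), with an unadjusted p of 0.0203 and an adjusted p of 0.689 by edgeR. SOX10 replicate 1, high for most members, was the lowest library for IFNB1, and control replicate 3 was the highest. IL29, a type III interferon now named IFNL1, had 7, 0 and 3 against 8, 4 and 12 reads, and 1.87, 0 and 0.727 against 8.84, 4.61 and 5.85 CPM. The 3 controls lay above the 3 SOX10 libraries, where 6.03% of all tested genes lay apart in that direction. The log2 fold change of IL29 was -2.67 (SE 0.67), the lowest of all tested genes, and rested on 34 reads in all. IL29 passed the filter on read counts only through the controls, where it is high. Its rank, its p-value and the gap between its groups are thus no independent support for a difference. By edgeR the unadjusted p was 0.000593 and the adjusted p 0.215. IL28A and IL28B, both of type III too, had 9 and 11 reads over all 6 libraries. IFNA2, IFNA4, IFNA5, IFNA8, IFNA13, IFNA16, IFNA21, IFNE, IFNK, IFNW1 and IFNG had between 1 and 6 reads over all 6 libraries. The IFNA genes are close copies of each other, so their few reads cannot be placed with certainty. At such depth no difference could be detected in them.

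Receptors and kinases of the pathway were present at moderate levels, and 0 of 8 tested genes passed the edgeR test or had an unadjusted p under 0.05. Over all tested genes 0.00937% passed it higher and 0.103% lower, and 2.71% and 3.52% had such an unadjusted p. With shares this small, 0 of 8 says little about these genes. The type I receptor subunit IFNAR1 stood at 68.5 ± 7.20 against 76.1 ± 7.84 CPM and IFNAR2 at 13.4 ± 2.26 against 14.2 ± 1.22 CPM (SD, n = 3 each). The interferon gamma receptor subunits IFNGR1 and IFNGR2 had 27.9 ± 2.28 against 26.6 ± 7.90 and 78.5 ± 14.6 against 72.9 ± 13.7 CPM. IL10RB, shared by several cytokine receptors, had 95.5 ± 8.71 against 83.5 ± 12.4 CPM, while the type III subunit IL28RA had 42 reads in all and was not tested. The kinases JAK1, JAK2 and TYK2 stood at 67.1 ± 4.35 against 60.3 ± 1.87, 66.2 ± 9.15 against 74.1 ± 14.2 and 40.3 ± 6.75 against 36.8 ± 5.09 CPM. Log2 fold changes ran from -0.15 for IFNAR1 to 0.18 for IL10RB. Signal regulators gave the same count, 0 of 8 tested genes by either threshold. The smallest p-values there belonged to SOCS3, a feedback inhibitor of kinases, IRF2, a repressor that competes with IRF1, and PIAS1, a SUMO ligase. The log2 fold change was -0.52 (SE 0.51) for SOCS3, -0.16 (SE 0.18) for IRF2 and -0.19 (SE 0.31) for PIAS1.

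A further list of interferon-induced genes outside the 37 was read in the same way. Of 47 tested genes 0 passed the edgeR test, and at an unadjusted p under 0.05 there were 4 lower and 1 higher. Over all tested genes 0.103% and 0.00937% passed the edgeR test in these directions, and 3.52% and 2.71% had such an unadjusted p. With so few genes passing, 0 of 47 says little about this list. The groups did not overlap in 5 of the 47 upward and 3 downward, against 5.72% and 6.03% of all tested genes. Named after their values were seen, the 5 were SP110, PML, LAP3, TDRD7 and CD274, and the 3 were BATF2, PARP9 and DDX58. PNPT1 and CXCL10, named likewise, had log2 fold changes of 0.31 and -1.21 and an unadjusted p under 0.05. The list's median log2 fold change was -0.021. The 3 with the smallest p were the chemokine genes CCL5 and CXCL11 and the transcription factor gene BATF2. CCL5 had 54.6, 26.7 and 17.0 CPM with SOX10 and 92.9, 27.7 and 119 CPM in the controls, and CXCL11 26.8, 16.4 and 10.4 against 24.3, 13.8 and 81.9 CPM. In both, control replicate 3 was the highest library and SOX10 replicate 1 the highest of its group, and the groups overlapped. BATF2 had 333, 336 and 346 against 371, 479.8 and 399.8 CPM, and all its SOX10 libraries lay below all controls. CCL5 had a log2 fold change of -1.36 (SE 0.34), CXCL11 of -1.35 (SE 0.39) and BATF2 of -0.30 (SE 0.11). The adjusted p-values by edgeR were 0.215, 0.333 and 0.538. SOX10 replicate 1 and control replicate 3 were both above their group mates in 22 of these 47 genes (46.8%), against 29.1% of all tested genes. Both were below in 12 (25.5%), against 28.8%.

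Markers of other cells were near 0 with few exceptions. Of the 9 leukocyte markers 8 stayed under 10 CPM in every library, CD3E and IL3RA had 0 reads, and the list summed to 197.2 to 490.3 CPM with SOX10 and 254.9 to 622 CPM in the controls. Nearly all of it was CD68, a lysosomal protein that is not limited to leukocytes, and the other 8 summed to 1.46 to 6.63 CPM. CD68 had 485, 382 and 192 CPM with SOX10 and 457, 253 and 621 CPM in the controls, highest in SOX10 replicate 1 and control replicate 3 as for most members. Its part in the pattern of the members was not tested. Of the 5 keratinocyte markers 3 stayed under 10 CPM, and of the 6 endothelial and fibroblast markers 5 did. Their sums were 72.6 to 92.04 against 63.4 to 78.5 CPM, mostly DSP, and 96.5 to 165.7 against 108.2 to 137.3 CPM, mostly PDGFRA. The melanoma and neural crest markers S100B and ERBB3 had 316 ± 38.8 against 307 ± 42.5 and 439 ± 87.2 against 444 ± 36.6 CPM (SD, n = 3 each). The pigment genes MLANA, TYR, DCT and PMEL had between 4 and 19 reads in all.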

How the data were processed

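The deposited table holds read counts, whole numbers for each gene symbol without normalization by the authors, in 1 column per library. TopHat 1.4.0, HTSeq and DESeq are named with the build hg19, per the submitters' processing notes. The gene annotation and strand setting remain not given in the sources used here. Library preparation started from 125 ng of RNA, per the labels' protocols. Columns were matched to samples by title, and groups were taken from the treatment label. The counter's 5 summary rows, which hold no gene, entered neither library sizes nor tests, and the row for reads in more than 1 place held 17.7% to 19.1% of all counted records.

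Groups were compared on all 6 libraries with edgeR 4.0.16 (quasi-likelihood, R 4.3.3), with TMM scaling and filterByExpr (minimum count 10, minimum total 15). Two-sided p-values were adjusted over 10678 genes (Benjamini-Hochberg), and genes under 0.05 were called. Standard errors came from the F statistic, and shifts and SDs of log2 CPM used an offset of 0.5 reads. For a gene at 0 the upper limit was set at 3 reads, which is 0.727 to 3.46 CPM and covers counting error only. DESeq2 1.42.0, limma-voom (limma 3.58.1), other scalings and filters, thinning, a replicate block, a covariate and leaving out libraries were alternatives. Exon lengths and shared 50-base stretches came from GENCODE release 29, which gave a length for 91.4% of tested genes, and promoters from RefSeq on GRCh38.p14. That build is not the one of the counts, so the promoters were matched to the counts by gene symbol, and coordinates are printed for the promoter windows alone.

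The members and lists were chosen with earlier results of these data known, so no list was tested. By rule, all members were given with the value in every library if they had at least 100 reads. The rule also named interferon ligands with a read, receptors and kinases, and the 3 smallest p-values in each other pathway list.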

Additional observations from a re-analysis of the deposited data

How the results depend on the processing

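Each result was recomputed under 17 alternatives. The count of members higher with SOX10 was 0 in all of them. The count lower was 0 by the main test, 2 with no filter on low counts (IFIT2 and IFI27) and 3 with reads outside genes as a covariate (IFIT2, IFITM1 and IFI27). Leaving out a replicate gave counts from 0 to 1, with IFI27 called without SOX10 replicate 1 and IFIT2 without control replicate 2. The median log2 fold change of members ran from -0.16 to 0.11 with a replicate left out and from -0.048 to 0.0064 under the other alternatives.

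Over all tested genes, 1 was higher and 11 were lower by the main test. These counts were 13 and 35 with no filter, 11 and 41 with the covariate, 4 and 14 without SOX10 replicate 1, 2 and 16 without control replicate 2 and 1 and 5 without control replicate 1. They were 1 and 7 with upper quartile scaling, with limma-voom and without SOX10 replicate 2 or 3, 1 and 6 with both SOX10 replicate 1 and control replicate 3 left out, and 2 and 12 with library totals. The cause of these differences was not tested.

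Deviations of libraries with the same replicate number had correlations of -0.027, -0.030 and -0.13, which showed no pairing by number. Such correlations were weak between all SOX10 and control libraries, from -0.13 to 0.14. They cannot show whether flasks with the same number were handled together. A fit with the replicate block called 0 members, 1 gene higher and 6 lower, with a member median of -0.024. SOX10 replicate 1 correlated best with control replicate 3, at 0.14.

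Signs changed in 50 of 627 member values, in 20 members, with adjusted p-values from 0.76 to 1.00. IFI6, at 8.1e-05 by the main test, had a log2 fold change of -0.0033 with DESeq2 size factors, -0.0051 with a filter of 5 CPM, -0.047 with limma-voom and -0.016 with the replicate block. It was -0.081 in libraries thinned to the shallowest, -0.10 without both SOX10 replicate 1 and control replicate 3, and -0.12 with the covariate. DTX3L was 0.0017 with upper quartile scaling and 0.0064 with no filter. With limma-voom MX2 was -0.020 and IFITM2 -0.016. With thinning IFIT1 was -0.0050, OAS3 -0.0083, IRF9 0.060 and IFI35 -0.012. Without that pair of libraries IFIT5 was 0.067, IRF1 0.073 and IFI35 -0.037. With the covariate IFIT1 was -0.0015 and MX2 -0.048. Thinning and leaving out the pair left 36 members to test.

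With a replicate left out, log2 fold changes ran from -0.90 to 0.12 for BST2, -0.96 to 0.084 for XAF1, -0.58 to 0.29 for ISG20, -0.50 to 0.18 for IRF1, -0.19 to 0.49 for IFITM2 and -0.23 to 0.077 for IFITM3. They ran from -0.28 to 0.15 for ISG15, -0.27 to 0.19 for IFI6, -0.16 to 0.18 for MX2, -0.11 to 0.16 for IFI35, -0.099 to 0.32 for IFI44 and -0.074 to 0.12 for IFIT1. For CMPK2 the range was -0.059 to 0.25, for GBP1 -0.060 to 0.12, for IFIT5 -0.12 to 0.045, for DTX3L -0.054 to 0.016, for OAS3 -0.013 to 0.096, for TRIM22 -0.0025 to 0.18 and for USP18 -0.040 to 0.19. The other members kept their sign under each left-out library, but not their size. RSAD2 ran from -0.76 to -0.023 and IFITM1 from -0.85 to -0.093, lowest without SOX10 replicate 1 and highest without control replicate 3. IFI44L ran from -0.70 without control replicate 2 to -0.19 without SOX10 replicate 3. Depth limits the rarest members most: IFITM2 rested on 4 and 5 reads in control replicates 1 and 2, and XAF1 on 10 in control replicate 2.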
